A study of Mus musculus with 2 samples.

Results

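The genes described here are 31 genes of cortical excitatory neurons, which were taken by matching the gene names in the array files to a fixed list of symbols. They make up 31 of 37074 named genes and 61 of 56605 probes on the array. By the layer in which each gene is best known, 15 were grouped as broad excitatory genes, 6 as upper-layer genes and 10 as deep-layer genes. Gene expression was measured on 2 single-colour arrays in the striatum of male mice on day 1 after MPTP, a toxin that damages dopaminergic terminals. The WT array (strain C57BL/6J in the labels) and the Cx30 KO array (strain Cx30-LacZ) each carried RNA pooled from 2 mice, and both genotypes had received 4 injections of 20 mg/kg MPTP every 2 h at 8 weeks of age. The Cx30 KO mice carry a constitutive disruption of *Gjb6*, which encodes connexin 30, a gap junction protein of astrocytes. According to the methods, heterozygotes were interbred and their non-mutant offspring served as WT. Saline-treated mice were not analysed here, so no value below measures a response to MPTP.

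Excitatory neurons of the cerebral cortex release glutamate, and their cell bodies lie in layers outside the striatum, whereas most striatal neurons are GABAergic. Their axons reach the striatum as the corticostriatal projection, but most of the mRNA of their genes stays in the cell bodies. Neurons of the upper layers mainly connect cortical areas with each other, while those of the deep layers also project to the thalamus, the brainstem and the spinal cord. Several of the genes are also used by other neurons, including those of the striatum, so a signal in striatal RNA need not come from the cortex. In bulk RNA, a change in the number of cells of a type and a change in RNA per cell cannot be told apart.

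All values are processed signals in arbitrary units, given with the error that the scanner software assigns to a spot (±). This error covers neither the labelling nor the mice. Each gene is represented by its brightest measured probe, where measured means well above background on at least 1 array, and the lowest signals that counted so were 19.8 in WT and 17.4 in Cx30 KO. The log2 ratio is Cx30 KO minus WT after each array was scaled to its 75th percentile, so a positive value means a higher level in Cx30 KO. A gene met the limits for higher genes at a ratio of at least 1.5 with a *Z*-score of at least 2, and those for lower genes at a ratio of at most 0.66 with a *Z*-score of at most −2. The *Z*-score is the distance from the mean log2 ratio of the 1000 probes nearest in signal, in SDs. A gene measured on 1 array only was held to its lower limit, given as "at least". Where its dim signal already lay above the lowest signal well above background, the measured ratio was used and is not a lower limit. Since each genotype had 1 pool on 1 array, nothing was replicated, so no difference was tested and none is known to exceed the variation between mice.

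The targeted gene *Gjb6* had 1788 ± 179 in WT against 111 ± 11.6 in Cx30 KO, which fits the labels. Over all measured genes, 1.71% met the limits for higher genes and 2.64% those for lower genes, and the median log2 ratio was 0.03. The striatal origin of both pools was visible in striatal projection neuron markers, such as *Penk* at 163257 ± 16326 in WT against 169777 ± 16978 in Cx30 KO, and 0 of 14 such markers met the limits.

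Of the 31 cortical genes, 10 met the limits for higher genes and 0 those for lower genes, beside the 1.71% and 2.64% over all genes. Of the others, 19 were measured without meeting the limits and 2 were not well above background on either array. The 10 higher genes were the broad excitatory genes *Slc17a7*, *Neurod2*, *Nptx1*, *Nrn1*, *Dkkl1* and *Mpped1* and the deep-layer genes *Tbr1*, *Fezf2*, *Cplx3* and *Nxph3*. By group, these were 6 of 15 broad excitatory, 0 of 6 upper-layer and 4 of 10 deep-layer genes. The difference between the layers was not tested, and the groups also differed in signal. In WT, 8 of the 10 higher genes had signals under 100, but *Mpped1* (1609) and *Nxph3* (1350) did not. The upper-layer genes, apart from *Rorb* (40.3), had 193 to 3730. The deep-layer genes that did not meet the limits had 164 to 7961. Layer and signal level can therefore not be told apart here. The genes and groups were chosen with earlier results of these data known, so these counts do not test the choice. Of the higher genes, *Slc17a7*, *Nptx1* and *Fezf2* were well above background in Cx30 KO only. Of the 29 measured genes, 24 were measured on both arrays, 5 in Cx30 KO only and 0 in WT only. The median log2 ratio was 0.41 over the 29, a value to which the 5 genes seen in Cx30 KO only contribute by selection, and 0.088 over the 24 measured on both arrays, against 0.02 for all genes measured on both.

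**Figure D1:**
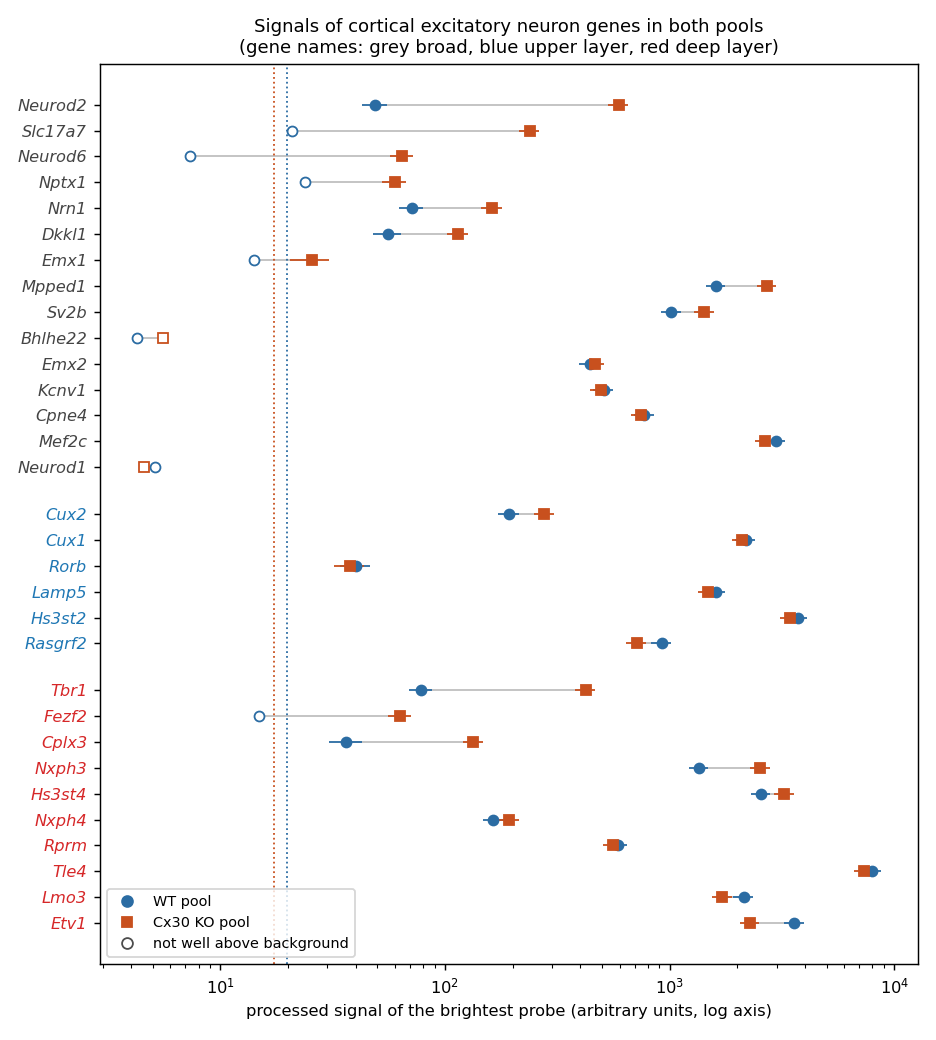
Processed signal (arbitrary units, log axis) of the brightest probe of each of the 31 genes in the WT pool (circles) and the Cx30 KO pool (squares). Bars on filled symbols are the scanner error, open symbols mark spots not well above background, and dotted lines mark the lowest signal that counted as well above background in WT (19.8) and Cx30 KO (17.4). Among genes measured on both arrays, the widest gaps are those of *Neurod2* in the broad group and of *Tbr1* and *Cplx3* in the deep group, whereas most upper-layer pairs overlap.

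Among the broad excitatory genes, 2 transcription factors of the NeuroD family and the vesicular glutamate transporter showed the widest gaps. *Neurod2*, a basic helix-loop-helix factor of differentiating and mature glutamatergic neurons (probe on chromosome 11 of mm9, 98187943 to 98188002), had 49.0 ± 6.43 in WT against 594 ± 59.5 in Cx30 KO. The log2 ratio was 3.67, or a 12.7-fold higher level, with a *Z*-score of 9.59. *Slc17a7* encodes the transporter VGLUT1, which loads glutamate into synaptic vesicles (chromosome 7, 52430841 to 52430900). It gave 20.8 ± 4.67 in WT, not well above background, and 238 ± 24.1 in Cx30 KO. The ratio of 12.1 is the measured one and not a lower limit, since the WT signal lay above 19.8. These gaps were already present before background subtraction. The mean brightness of the *Slc17a7* spot was 105 over a local background of 92 in WT and 343 over 87 in Cx30 KO, and that of the *Neurod2* spot was 135 over 90 and 730 over 89.

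*Neurod6*, a factor of the same family that marks cortical and hippocampal excitatory neurons (chromosome 6, 55628006 to 55628065), had 7.31 ± 4.68 in WT, which is not well above background, and 64.6 ± 7.65 in Cx30 KO. It was at least 3.44-fold higher but did not meet the limits, since its *Z*-score at this lower limit was 1.56. That score used the spread among probes near its measured signal, not near the lower limit. *Fezf2*, at least 3.37-fold higher, had a *Z*-score of 2.25 and met the limits. Lower limits do not rank these genes by ratio, and the Cx30 KO signal of *Fezf2* (63.3 ± 7.47) overlaps that of *Neurod6*. *Neurod1*, the third family member, was not well above background in either pool, at 5.15 and 4.59. Of the homeobox genes that pattern the dorsal telencephalon, *Emx1* had 14.2 ± 5.15 in WT, not well above background, and 25.5 ± 5.12 in Cx30 KO. It was at least 1.36-fold higher and did not meet the limits. *Emx2*, which astrocytes and progenitors also express, had 441 ± 44.2 and 465 ± 46.7, and these ranges overlap.

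The promoters of the glutamate transporter gene *Slc17a7* and of the transcription factor genes *Neurod2*, *Neurod6*, *Tbr1* and *Fezf2* are shown here because each was at least 3.37-fold higher in Cx30 KO. They were picked out after their values were seen, and *Cplx3*, 3.86-fold higher, passes the same threshold but is not shown. The sequences are the 250 bases before the start site from RefSeq (GRCm38.p6), 5′ to 3′, with each E-box (CANNTG, the core recognised by basic helix-loop-helix factors such as the NeuroD proteins) in capitals.
Neurod2 (chr11:98329646-98329895, minus strand): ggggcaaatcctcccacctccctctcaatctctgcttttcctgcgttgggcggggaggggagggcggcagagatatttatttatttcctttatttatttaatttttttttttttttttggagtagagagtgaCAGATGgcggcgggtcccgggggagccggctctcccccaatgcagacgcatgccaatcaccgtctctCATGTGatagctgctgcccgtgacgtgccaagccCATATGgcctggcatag
Slc17a7 (chr7:45163671-45163920, plus strand): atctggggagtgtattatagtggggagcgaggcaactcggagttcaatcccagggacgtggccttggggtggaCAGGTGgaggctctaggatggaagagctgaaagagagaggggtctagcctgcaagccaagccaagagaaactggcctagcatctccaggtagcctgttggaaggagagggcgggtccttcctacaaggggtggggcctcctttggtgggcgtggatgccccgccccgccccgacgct
Neurod6 (chr6:55681264-55681513, minus strand): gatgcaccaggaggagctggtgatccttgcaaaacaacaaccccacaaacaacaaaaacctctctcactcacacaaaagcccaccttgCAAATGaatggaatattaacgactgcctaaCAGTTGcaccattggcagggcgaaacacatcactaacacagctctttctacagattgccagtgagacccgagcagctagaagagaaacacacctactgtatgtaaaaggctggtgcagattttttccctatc
Tbr1 (chr2:61804203-61804452, plus strand): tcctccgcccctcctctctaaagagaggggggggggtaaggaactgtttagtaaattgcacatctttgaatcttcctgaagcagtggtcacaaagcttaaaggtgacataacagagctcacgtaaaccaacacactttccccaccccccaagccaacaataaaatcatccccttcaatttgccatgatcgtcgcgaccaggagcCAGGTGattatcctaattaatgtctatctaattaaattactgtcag
Fezf2 (chr14:12345866-12346115, minus strand): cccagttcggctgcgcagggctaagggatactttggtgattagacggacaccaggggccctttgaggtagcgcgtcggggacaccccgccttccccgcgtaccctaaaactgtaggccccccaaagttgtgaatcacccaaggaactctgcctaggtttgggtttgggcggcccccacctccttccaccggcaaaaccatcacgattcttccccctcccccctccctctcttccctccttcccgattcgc

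In these 250 bases, *Neurod2* held 3 E-boxes, 1 of them the variant CAGATG that NeuroD proteins prefer. *Neurod6* held 2, *Slc17a7* and *Tbr1* held 1 each, and *Fezf2* held 0. The whole promoter window of the table has 50 further bases after the start site, and promoters of 25 of the 31 genes were in it. On either strand, CANNTG was present in 27 of the 37 promoters of these genes and in 72.3% of all 32851 promoters. CAGATG, itself an E-box, was present in 6 of the 37 and in 17.2% of all promoters. AGGTGTGA, bound by T-box factors such as TBR1, was present in 1 of the 37, that of *Lmo3*, and in 1.28% of all promoters.

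*Nptx1*, a secreted pentraxin that clusters glutamate receptors, had 23.9 ± 5.44 in WT and 59.7 ± 7.42 in Cx30 KO. The WT signal was not well above background, and the ratio of 2.62 is the measured one, not a lower limit. *Nrn1*, a membrane-anchored neuritin that is induced by activity, had 71.3 ± 8.79 and 162 ± 16.9, with a log2 ratio of 1.26. *Dkkl1*, a secreted protein related to the Dickkopf family, had 55.7 ± 7.75 and 114 ± 12.4, with a log2 ratio of 1.11. For these 3 genes the ranges given by the scanner error do not overlap. *Mpped1*, a metallophosphoesterase-domain protein (chromosome 15, 83688813 to 83688872), had the brightest of the broad probes that met the limits, with 1609 ± 161 in WT against 2712 ± 271 in Cx30 KO and a log2 ratio of 0.82. *Sv2b*, a synaptic vesicle protein, had 1019 ± 102 and 1430 ± 143, and its ratio of 1.47 fell just short of 1.5 with a *Z*-score of 2.13.

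The remaining measured broad genes lay close to a ratio of 1 at their brightest probe. *Mef2c*, a transcription factor of activity-dependent synapse development, had 2962 ± 296 in WT against 2671 ± 267 in Cx30 KO (log2 ratio −0.08). *Kcnv1*, a silent potassium channel subunit, had 508 ± 51.1 and 493 ± 49.5 (0.03), and *Cpne4*, a calcium-dependent phospholipid-binding copine, had 771 ± 77.3 and 746 ± 74.8 (0.02). A second, dimmer *Cpne4* probe had 53.1 in WT against 30.5 in Cx30 KO (log2 ratio −0.73), and averaging both gave −0.35. At the brightest probe, the pools overlap for all 3 genes within the scanner error. *Bhlhe22*, a basic helix-loop-helix repressor, was not well above background in either pool, at 4.26 and 5.57.

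Among the deep-layer genes, *Tbr1*, *Fezf2*, *Cplx3* and *Nxph3* met the limits for higher genes. *Tbr1*, the T-box factor that specifies corticothalamic neurons of layer 6 (chromosome 2, 61652093 to 61652152), had 78.6 ± 9.47 in WT against 423 ± 42.6 in Cx30 KO, a log2 ratio of 2.50 and a *Z*-score of 6.72. *Fezf2*, a zinc finger factor that specifies the subcerebral projection neurons of layer 5 (chromosome 14, 13175057 to 13175116), had 14.9 ± 4.73 in WT, not well above background, and 63.3 ± 7.47 in Cx30 KO. It was at least 3.37-fold higher, and its probe lies 44.6 Mb from that of *Gjb6* on the same chromosome. *Cplx3*, a complexin that clamps and promotes vesicle fusion and marks subplate neurons, had 36.5 ± 6.08 in WT against 134 ± 14.1 in Cx30 KO (log2 ratio 1.95). All 3 genes were dim in WT.

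The neurexophilins, secreted ligands of alpha-neurexins, had different ratios, and the difference between them was not tested. *Nxph3*, which is known from layer 6b, had 1350 ± 135 in WT against 2539 ± 254 in Cx30 KO, a ratio of 1.98 with a *Z*-score of 3.58. *Nxph4* had 164 ± 17.1 and 194 ± 19.9, with a log2 ratio of 0.31 that did not meet the limits. *Hs3st4*, a heparan sulphate sulphotransferase of layer 6, had 2558 ± 256 and 3243 ± 324. Its ratio of 1.33 was below 1.5, and the second probe of the gene gave a similar log2 ratio (0.45 against 0.41).

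The other deep-layer genes lay at or below a ratio of 1. *Rprm*, which encodes the cell cycle inhibitor reprimo, had 590 ± 59.2 in WT against 560 ± 56.1 in Cx30 KO (log2 ratio −0.0036). *Tle4*, a Groucho-type co-repressor of layer 6, had 7961 ± 796 and 7360 ± 736, with a log2 ratio of −0.04. *Lmo3*, a LIM-only transcriptional regulator, had 2140 ± 214 and 1717 ± 172, with a log2 ratio of −0.25. *Etv1*, an ETS factor of layer 5, had 3590 ± 359 and 2279 ± 228. Its ratio of 0.667 stopped just short of the limit of 0.66, and it was the only one of the 31 genes to meet the limits for lower genes under any alternative tried, namely with each array scaled to its median.

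**Figure D2:**
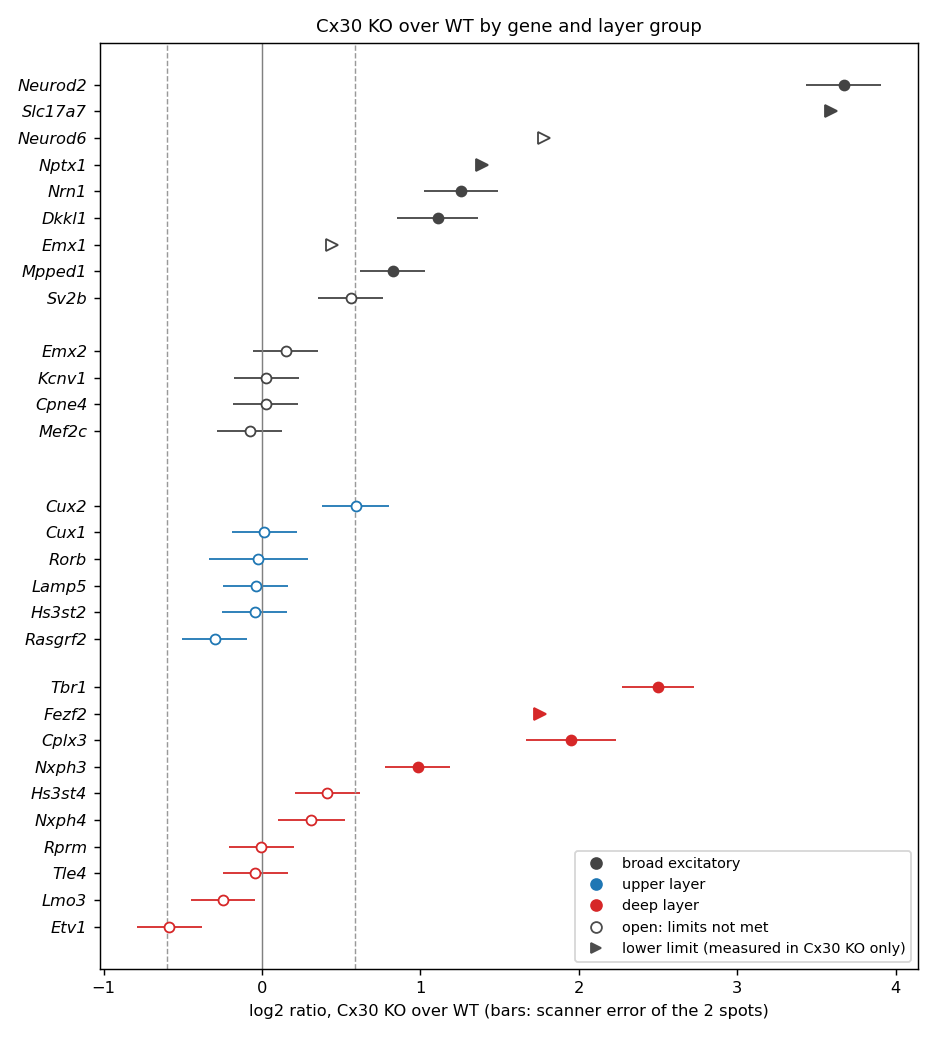
The log2 ratio of Cx30 KO over WT (x axis) for the 29 measured genes, grouped as broad excitatory, upper layer and deep layer. Filled symbols met the limits, triangles are genes measured in Cx30 KO only, bars are the scanner error, and dashed lines mark ratios of 1.5 and 0.66. Triangles show lower limits, except those of *Slc17a7* and *Nptx1*, which show measured ratios. Filled symbols occur in the broad group (6) and the deep group (4), and all 6 upper-layer symbols are open.

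No upper-layer gene (0 of 6) met the limits, and the median log2 ratio of the group was −0.03, which turned to 0.07 when the probes of each gene were averaged. *Cux2*, a homeodomain factor of layers 2 to 4, came nearest, with 193 ± 20.04 in WT against 277 ± 28.1 in Cx30 KO. Its ratio of 1.51 passed 1.5, but its *Z*-score was 1.62. Its relative *Cux1* had 2184 ± 218 and 2101 ± 210, with a log2 ratio of 0.02. *Rorb*, a nuclear receptor of layer 4, was dim but measured in both pools, with 40.3 ± 6.23 and 37.8 ± 5.67. The ranges of *Rorb* overlap, unlike those of the similarly dim *Cplx3*.

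*Lamp5*, a neuronal lysosome-associated membrane protein, had 1606 ± 161 in WT against 1487 ± 149 in Cx30 KO (log2 ratio −0.04). *Rasgrf2*, a guanine nucleotide exchange factor for Ras, had 922 ± 92.4 and 714 ± 71.6, with a log2 ratio of −0.30. Its second measured probe pointed the other way, with a measured ratio of 1.31, and stood well above background in Cx30 KO only. *Hs3st2*, a heparan sulphate sulphotransferase, had 3730 ± 373 and 3437 ± 344 at its brightest probe, which is assigned to a predicted transcript (chromosome 7, 128539951 to 128540010). The probe for its curated RefSeq mRNA (128644795 to 128644854) had 202 and 252, a log2 ratio of 0.39, and a dim probe measured in Cx30 KO only was at least 1.15-fold higher. The direction for *Hs3st2* therefore differed between probes.

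Probes of the same gene served as a check within the arrays. The log2 ratios at different probes of 1 gene varied with an SD of 0.26 (7137 genes), and 11 of the 19 genes that were measured without meeting the limits had log2 ratios smaller than this. Of the 31 genes, 13 had at least 2 measured probes, and in 7 of these the probes all pointed the same way. These were *Sv2b* and *Cux2* with higher levels, *Hs3st4* with 0.41 and 0.45, and *Etv1*, *Lmo3*, *Tle4* and *Lamp5* with lower levels. The 2 measured *Cux2* probes had 0.59 and 0.55. Each of the 10 genes that met the limits rested on a single measured probe (10 of 10), so none of them could be checked in this way, and 8 of the 10 had WT signals under 100.

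**Figure D3:**
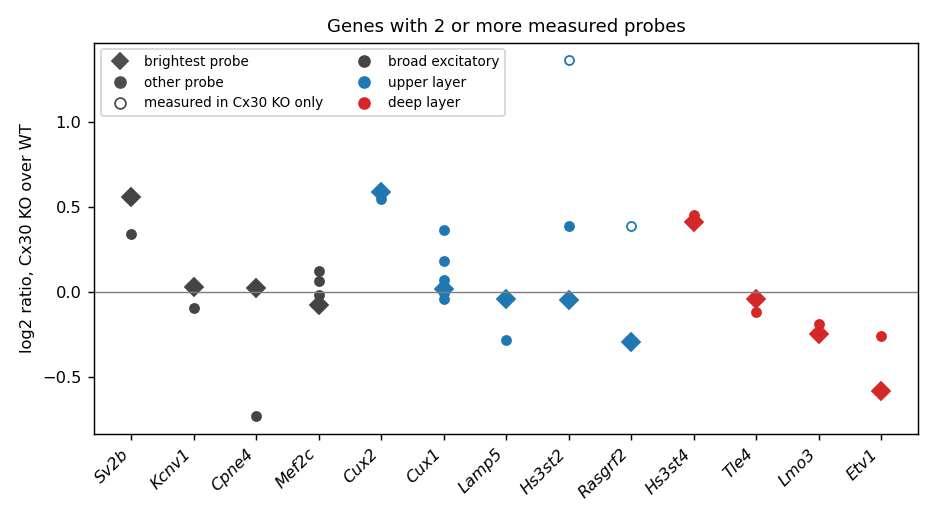
The log2 ratio of Cx30 KO over WT (y axis) at each measured probe of the 13 genes with 2 or more of them. Diamonds are the brightest probe, circles the others, and open circles were measured in Cx30 KO only. The *Cux2* and *Hs3st4* probes lie close together, whereas those of *Hs3st2*, *Rasgrf2* and *Cpne4* spread over both sides of 0.

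The size of the gap depended on the background correction for dim genes. Normexp correction models the background and adds an offset of 50. With it and quantile normalisation, the log2 ratio was 2.64 for *Neurod2*, 1.96 for *Slc17a7*, 1.67 for *Tbr1*, 0.94 for *Cplx3*, 0.75 for *Nrn1* and 0.64 for *Fezf2*. *Dkkl1* (0.53) and *Nptx1* (0.47) then no longer met the limits, and *Neurod6* (0.84) did. The brighter *Nxph3* (0.96) and *Mpped1* (0.81) hardly moved. With the ratio limits alone and no *Z*-score, 12 of the 31 genes counted as higher and 0 as lower, with *Cux2* and *Neurod6* added, against 5.63% and 5.64% of all genes.

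A further list of 22 cortical excitatory genes outside the 31 was examined in the same way. Of these, 19 were measured, 9 with positive and 10 with negative log2 ratios, and the median was −0.05. The limits for higher genes were met by 3, which is 3 of 22 beside the 1.71% over all genes. *Ccn2*, a secreted matricellular protein of layer 6b, had 266 ± 27.0 in WT against 700 ± 70.1 in Cx30 KO (1.47). *Ntsr1*, the neurotensin receptor of corticothalamic neurons, had 47.3 ± 6.41 and 131 ± 13.6 (1.54), and *Crym*, a thyroid hormone-binding crystallin of deep layers and striatum, had 13786 ± 1379 and 20701 ± 2070 (0.66). *Trib2*, a pseudokinase, met the limits for lower genes (−0.68).

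Markers of other cell types moved beside the cortical genes. Of 10 oligodendrocyte markers, 10 had negative log2 ratios and 6 met the limits for lower genes, with a median of −0.70 and a summed signal of 162868 in WT against 96673 in Cx30 KO. Of 8 microglia markers, 7 had negative log2 ratios and 4 met the limits for lower genes, with a median of −0.52 and a summed signal of 87474 in WT against 81243 in Cx30 KO. Most of that sum came from *Itgam*, an integrin subunit of myeloid cells and the marker with a positive log2 ratio, with 60045 ± 6005 in WT against 62438 ± 6244 in Cx30 KO. None of the markers of these lists was at background (0 unmeasured of 18). Their part in the result was not tested.

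The other neuronal lists had median log2 ratios between −0.20 (thalamic) and 0.22 (hippocampal). The 14 striatal projection neuron markers had a median log2 ratio of 0.02, with 7 positive and 7 negative values and a summed signal of 493155 in WT against 497274 in Cx30 KO. The 10 pan-neuronal markers had a median of 0.09, and 1 of them, the neurofilament gene *Nefl* (−0.66), met the limits for lower genes. Of 8 thalamic markers 5 were measured and 0 met the limits, and of 8 hippocampal markers 3 were measured and 1, *Wfs1* (0.63), met the limits for higher genes. Among 11 GABAergic interneuron markers, 10 were measured, with a median of 0.17. *Cck* (2.30), a neuropeptide that cortical excitatory neurons express as well, and *Vip* (1.77) met the limits for higher genes, whereas *Pvalb* (−1.27) met those for lower genes. *Cck* had 1799 ± 180 in WT against 8413 ± 842 in Cx30 KO. Astrocyte markers had a median of −0.03, and 1 of 10, the water channel gene *Aqp4* (−0.95), met the limits for lower genes. Of 8 endothelial markers 1, the receptor gene *Flt1* (−0.93), did so. *Nefl*, *Cck*, *Vip*, *Pvalb* and *Aqp4* were picked out after their values were seen.

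**Figure D4:**
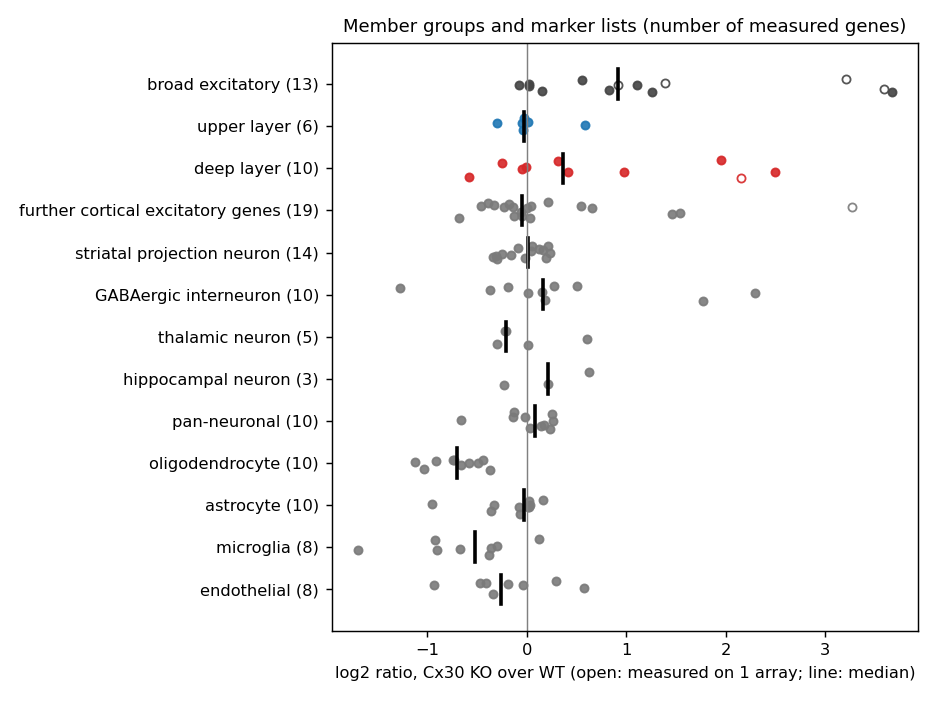
The log2 ratio of Cx30 KO over WT (x axis) of each measured gene in the 3 groups of cortical genes (coloured) and in the other lists (grey), with the number of measured genes in parentheses. Black lines are medians, and open circles were measured on 1 array only. The medians are 0.92 in the broad excitatory group (0.82 with genes measured in Cx30 KO only at their lower limit, 0.56 among genes measured on both arrays), 0.36 in the deep-layer group, −0.03 in the upper-layer group and −0.70 for the oligodendrocyte markers.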

How the data were processed

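Striatal RNA of WT and Cx30 KO mice was measured on 2 Agilent arrays of 60-mer probes on the same slide, 1 for each genotype. The authors extracted signals with Agilent Feature Extraction (10.7.1.1 in the file headers, 9.5.1.1 in the submitters' notes). The deposited processed signals are linear intensities, background-subtracted and detrended within each array and not normalised between arrays. Dim spots carry substitute values, which can inflate ratios. A second deposited table holds the authors' intensities normalised between arrays by a method that is not given in the sources used here. Probe positions are on mm9.

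Control and outlier spots were left out, replicate spots were averaged on the log2 scale, and each array was divided by its 75th percentile (401.2 in WT, 381.8 in Cx30 KO). A probe counted as well above background if the scanner software marked 50% or more of its spots (56.6% of WT probes, 58.2% of Cx30 KO probes). A gene measured on 1 array was compared with the larger of its own signal and the lowest signal well above background on the other. The ratio and *Z*-score limits follow the methods, except that *Z* was taken among probes of similar signal. Probes printed several times had an SD of 0.05 between spots (293 probes). Only 2 arrays were available, which limits the precision.

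All 31 genes are named. From other lists, the 3 brightest genes could be named, and from the further cortical list those that met the limits. *Nefl*, *Cck*, *Vip*, *Pvalb* and *Aqp4* fall outside this rule and were named after their values were seen. *Ccn2* carries its older symbol in the files. The members and lists were chosen with earlier results of these data known. Alternatives used quantile normalisation, scaling to the median, normexp (limma 3.58.1, R 4.3.3), the authors' table, every probe regardless of brightness, genes measured on both arrays, averaged probes, and other limits. The scripts (Python 3.11.15) were tested on simulated data.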

Additional observations from a re-analysis of the deposited data

How the results depend on the processing

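With 1 pool for each genotype, no replicate could be left out, and no paired analysis was possible because each group has 1 sample. The count of higher genes among the 31 was 10 and lay between 7 and 12 over the alternatives. It was 7 among genes measured on both arrays, which leaves out *Slc17a7*, *Fezf2* and *Nptx1*. With ratio limits of 2 and 0.5 it was 8, without *Mpped1* and *Nxph3*. With a Z-score over all probes it was also 8, without *Dkkl1*, *Mpped1* and *Nxph3* but with *Neurod6*. *Mpped1* and *Nxph3* had the brightest WT signals of the 10 genes. The count was 9 with normexp, 11 with no filter on dim probes and 12 with no Z-score. In the last setting *Neurod6* and *Cux2* were added, and 5.63% of all genes met the limit for higher genes. In the other settings the same 10 genes met the limits. The median log2 ratio of the measured genes was 0.41 and fell to 0.20 with normexp and to 0.088 with genes measured on both arrays. The broad excitatory median was 0.92, 0.56 with genes measured on both arrays and 0.52 with normexp. The deep-layer median lay between 0.30 and 0.37 and the upper-layer median between −0.08 and 0.07. Of 198 log2 ratios of single genes under alternatives, 13 moved by more than the SD between probes. Normexp accounted for 10 of these, and with it 19 genes did not move. None (0) of the genes that met the limits changed direction. However, many of the 198 could not move. The 29 with no filter on dim probes and the 24 measured on both arrays equalled the main values. Scaling to the median shifted all genes alike. Averaging left genes with 1 measured probe unchanged, among them all 10 that met the limits. Over all genes, 378 were higher and 583 lower, against 1240 and 1244 with no Z-score, 196 and 265 with limits of 2 and 0.5, 221 and 300 with a Z-score over all probes, and 554 and 896 with no filter on dim probes. Signals near background limit *Neurod6*, *Emx1* and *Fezf2* to lower bounds and leave the measured ratios of *Slc17a7* and *Nptx1* uncertain.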
